A study of Rattus norvegicus with 99 samples.

Results

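The right ventricle (RV) and the left ventricle (LV) of the same heart were compared in 11 sham-operated rats, which gave 22 of the 99 libraries of the series. The series holds 1 polyadenylated RNA library from LV, interventricular septum (Spt) and RV of each of 33 rats with a band around the pulmonary artery (PAB), a band around the aorta (AOB) or a sham operation. All rats were males of a first-generation cross between Wistar Kyoto females and Lewis males, and the members carried no band. The members were 6 of the 7 Sham-H animals (11 weeks old, 7 weeks after surgery), both Sham-RF animals (27 weeks old, 21 weeks after surgery) and all 3 Sham-LF animals (30 weeks old, 24 weeks after surgery). Ages follow the sample labels, and the study's text gives others. The chamber follows the sample titles, since 1 label field calls the tissue of RV samples left ventricle, and for the RV sample of Sham-LF replicate 1 a description field names the sham group of PAB while its title names that of AOB. LV and RV were pieces of whole tissue, so fewer cells of a type and less RNA per cell cannot be told apart in any value below.

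The members were chosen on a measured value. Sham-H replicate 6 was left out because its RV minus LV difference ran the opposite way. Its signed difference, averaged over 50 genes picked without it for a difference between the ventricles, was -0.895 times the median of the others. The nearest member inside the rule was Sham-H replicate 5, at 0.461 times that median, followed by Sham-H replicate 3 at 0.788. Among the banded animals the difference was also reversed in PAB-H replicate 2 (-1.02) and AOB-H replicate 1 (-1.36). For this reason the values of the 11 animals are given as a description, in which an adjusted p under 0.05 serves as a cut-off that sorts genes into RV-higher and LV-higher. The tests of RV against LV come from all 12 shams with their labels kept, and from the 21 banded animals, which share no library with the shams. Each value of the banded animals is an average over PAB and AOB, which load opposite ventricles, and over the compensated and failure stages. The interaction with age was fitted in the 11 animals and is given beside its value in all 12. In the text a gene "passed" when its Benjamini-Hochberg adjusted p of edgeR's quasi-likelihood test was under 0.05 in all 12 shams. The 11 animals are among these 12, so passing was favoured for genes that were named by their values in the 11.

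**Figure D1:**
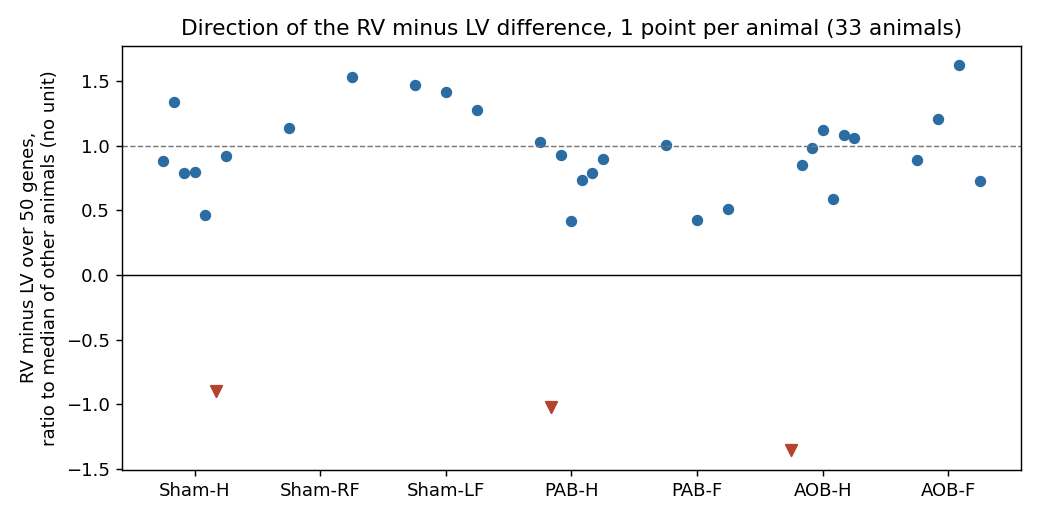
RV minus LV difference of each of 33 animals over 50 genes picked without that animal, as a ratio to the median of those animals (no unit), by condition. Each point is 1 animal; the dashed line marks a ratio of 1, and the 3 triangles below 0 are Sham-H replicate 6, PAB-H replicate 2 and AOB-H replicate 1.

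Both ventricles are built from different progenitors. The LV derives mainly from the first heart field and the RV from the second, and T-box, GATA, Iroquois and Hand transcription factors take part in this division. After birth the LV pumps against systemic pressure with a thick wall, and the RV against the low pressure of the lung with a thin one. Natriuretic peptides, fetal sarcomere genes and matrix genes are known to follow wall load. Both chambers are covered by mesothelium outside and lined by endocardium inside.

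Total counts ranged from 12816274 to 21146065 per ventricular library of the 11 animals. A detection floor of 3 counts then corresponds to 0.142 to 0.234 CPM (counts scaled to 1000000 per library). Defining cardiomyocyte genes were abundant in each of the 22 libraries, with a summed level of 72404 to 97621 CPM in LV and 83660 to 100437 CPM in RV. Markers of lung and thymus summed to at most 0.822 CPM in LV and 3.04 CPM in RV. In 2 RV libraries, those of Sham-H replicate 7 and Sham-LF replicate 3, 12 markers of atrial myocardium summed to 4542 and 3841 CPM, while the other 9 RV libraries held at most 1709 CPM. These 2 libraries stand apart from the other RV libraries. Without both animals, and thus with fewer samples, 4059 of 11534 genes were past the cut-off. Genes no longer past it included Corin (adjusted p 0.0741) and Nr2f2 (adjusted p 0.0727), and Bmp10 and Dhrs9 were then too low to be fitted. Markers past the cut-off toward LV fell from 4 to 2 for fibroblasts and from 4 to 2 for erythroid cells.

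In the 11 animals 5204 of 11597 genes (44.9%) fell past the cut-off, 2429 (20.9%) RV-higher and 2775 (23.9%) LV-higher, counts that the choice of animals helped to set. Most differences were small. The median difference was 0.24 on the log2 scale among RV-higher genes and -0.32 among LV-higher genes, and -0.01 over all genes. A difference of at least 1 log2 unit was reached by 98 RV-higher genes (0.845%) and 36 LV-higher genes (0.31%). In 41 genes (0.354%) all 11 RV libraries lay above all 11 LV libraries, and in 22 (0.19%) all LV libraries lay above all RV libraries. The difference had 1 direction in 11 of 11 animals for 883 genes higher in RV (7.61%) and 926 higher in LV (7.98%).

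With all 12 shams, 2807 of 11627 genes (24.1%) passed, 1355 (11.7%) higher in RV and 1452 (12.5%) higher in LV. In the 21 banded animals, reversed ones included, 1999 of 11787 genes (17.0%) were past an adjusted p of 0.05, 840 (7.13%) higher in RV and the others (9.83%) higher in LV. Counts within gene lists below are to be read beside these shares of all genes. The direction was shared between the 11 shams and the banded animals for 2377 of 2426 RV-higher genes (98.0%) and for 2715 of 2774 LV-higher genes (97.9%), against 84.6% of all genes tested in both. Of the RV-higher genes 722 (29.8%) and of the LV-higher genes 943 (34.0%) were past the adjusted p of 0.05 in the banded animals with the same sign, and none with the opposite sign. Library series here means a run of consecutive library numbers, a grouping that was inferred and need not be a batch. Within the 8 shams of library series 2, to which the reversed animal does not belong, 4099 of 11513 genes (35.6%) were past the cut-off. Without both reversed banded animals, 4545 genes (38.6%) were past it in the other 19. The test with 12 animals depended on single animals. The count rose to 5204 without Sham-H replicate 6. It fell to 1389 without Sham-RF replicate 2, 1416 without Sham-LF replicate 3, 1504 without Sham-LF replicate 2, 1661 without Sham-H replicate 2, 1757 without Sham-H replicate 3, 1801 without Sham-H replicate 7 and 1816 without Sham-RF replicate 1. It was 284 without both Sham-H replicate 7 and Sham-LF replicate 3.

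The natriuretic peptides, hormones that cardiomyocytes release upon stretch, were among the genes with the largest differences toward LV. Nppa, which encodes atrial natriuretic peptide, ranged from 273 to 1180 CPM in LV (median 817) and from 48.7 to 1941 CPM in RV (median 98.9). Of the RV libraries, 9 lay at 459 CPM or below and the 2 with atrial genes at 1941 (Sham-H replicate 7) and 1244 (Sham-LF replicate 3), so the ranges overlapped and 9 of 11 animals were higher in LV. The log2 difference RV minus LV was -2.29 ± 0.47 (SE, adjusted p 0.00879) in all 12 shams, and the description without both animals gave -2.78. The fit of 12 includes the reversed Sham-H replicate 6, whose LV library held 7496 CPM of the atrial markers, Nppa among them. LV libraries of the 11 animals held at most 2815 CPM of these markers. The part of this library in the Nppa value was not tested. Nppb, which encodes brain natriuretic peptide and is known from ventricle more than atrium, ranged from 165 to 511 CPM in LV (median 367) and from 47.1 to 322 CPM in RV (median 88.9). It was higher in LV in 11 of 11 animals, with a log2 difference of -1.56 ± 0.24 (adjusted p 0.00646) in all 12 shams and -0.77 ± 0.25 (adjusted p 0.0409) in the banded animals. That of Nppa in the banded animals was -0.83 ± 0.41 (adjusted p 0.142).

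Nppa and Nppb lie side by side in the rat genome, with no other protein-coding gene between them. Their promoters are shown because both genes of the pair were higher in LV. The windows are the 250 bases upstream of each start in RefSeq's annotation of the GRCr8 assembly, written along the gene's strand, and they do not come from the build on which the reads were mapped. Letters in capitals mark a match to 1 of 5 motifs (T-box, GATA, E-box, Nkx2-5 and MEF2) searched on both strands, whose letters are given with their shares further on. Nppb held 1 match, to the GATA letters AGATAA, which began 110 bases before the start.
Nppa (chr5:163711934-163712183, + strand): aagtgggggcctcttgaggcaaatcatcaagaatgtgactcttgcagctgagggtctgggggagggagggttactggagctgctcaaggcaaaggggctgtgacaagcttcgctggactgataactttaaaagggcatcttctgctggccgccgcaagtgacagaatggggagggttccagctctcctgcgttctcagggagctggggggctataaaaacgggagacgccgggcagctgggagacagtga
Nppb (chr5:163699758-163700007, + strand): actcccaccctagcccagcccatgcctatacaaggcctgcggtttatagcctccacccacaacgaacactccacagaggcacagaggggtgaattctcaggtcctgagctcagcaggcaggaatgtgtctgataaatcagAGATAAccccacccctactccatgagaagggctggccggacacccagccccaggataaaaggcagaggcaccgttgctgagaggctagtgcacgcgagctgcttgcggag
The Nppa window held none of these letters, which says nothing about binding.

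The rest of the natriuretic system differed less. Of 8 tested genes for its peptides, processing enzymes and receptors, 4 passed higher in LV (Nppa, Nppb, Npr1 and Furin) and 1 higher in RV (Npr2), with a median difference of -0.14 against -0.01 over all genes. Npr1, the receptor of both peptides above, had 52.0 to 69.3 CPM in LV and 47.0 to 66.5 CPM in RV, with a difference of -0.17 ± 0.06 (adjusted p 0.0491). Npr2, the receptor of C-type natriuretic peptide, had 36.7 to 43.8 CPM in LV and 42.3 to 51.6 CPM in RV (0.16 ± 0.05, adjusted p 0.0375). The calls of Npr1, Npr2 and Furin were lost in 11, 10 and 9 of 12 fits that each left out 1 animal. Corin, the protease that activates atrial natriuretic peptide, had a median of 45.2 CPM in LV and 70.5 CPM in RV and did not pass (0.36 ± 0.13, adjusted p 0.055), while in the banded animals it was higher in RV (0.41 ± 0.12, adjusted p 0.0289).

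Iroquois genes, homeobox factors that set regional identity and repolarisation gradients in the ventricle, differed in both directions within 1 gene cluster. Irx1 ranged from 2.94 to 7.51 CPM in LV (median 5.18) and from 0.598 to 2.66 CPM in RV (median 1.06), without overlap. Irx2 ranged from 2.34 to 7.58 CPM in LV and from 0.764 to 2.95 CPM in RV, and was higher in LV in 11 of 11 animals. Irx4, known as a ventricular factor, ranged from 19.3 to 28.6 CPM in LV (median 22.2) and from 26.6 to 36.4 CPM in RV (median 31.1), and was higher in RV in 11 of 11 animals. All 3 genes passed, with log2 differences of -1.63 ± 0.39 for Irx1 (adjusted p 0.0144), -1.44 ± 0.39 for Irx2 (adjusted p 0.0213) and 0.40 ± 0.06 for Irx4 (adjusted p 0.00646). In the banded animals these were -1.71 ± 0.32 (adjusted p 0.00627), -1.80 ± 0.32 (adjusted p 0.00562) and 0.37 ± 0.06 (adjusted p 0.00562). In the annotation no other protein-coding gene lies between Irx1 and Irx2 or between Irx2 and Irx4. Of the second Iroquois cluster, Irx5 passed higher in LV (-0.36 ± 0.11, adjusted p 0.0351), while Irx3 had a median of 23.0 CPM in LV and 20.8 CPM in RV (-0.01 ± 0.09, adjusted p 0.942).

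The promoters of Irx1 and Irx4 are shown because these neighbours differed in opposite directions.
Irx1 (chr1:33122872-33123121, + strand): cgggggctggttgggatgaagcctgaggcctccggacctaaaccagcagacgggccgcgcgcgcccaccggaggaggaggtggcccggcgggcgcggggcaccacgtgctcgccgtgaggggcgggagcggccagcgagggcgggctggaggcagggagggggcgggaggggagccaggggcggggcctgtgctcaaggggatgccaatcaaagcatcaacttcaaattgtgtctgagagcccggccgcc
Irx4 (chr1:31868090-31868339, - strand): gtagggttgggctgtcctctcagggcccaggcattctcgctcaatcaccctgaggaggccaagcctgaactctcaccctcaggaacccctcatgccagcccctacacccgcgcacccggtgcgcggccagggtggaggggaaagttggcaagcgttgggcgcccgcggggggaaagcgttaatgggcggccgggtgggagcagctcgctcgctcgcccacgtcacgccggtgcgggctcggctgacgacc
Neither window held a match to the 5 motifs, and both were rich in G and C, at 72.8% for Irx1 and 69.2% for Irx4, against a median of 60.0% over the tested genes and 57.2% for Nppa.

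Among 35 tested transcription factors of chamber patterning, 10 passed higher in RV (28.6% against 11.7% of all genes) and 8 higher in LV (22.9% against 12.5%), and the median difference was -0.02. Meis2, a cofactor of Hox and Pbx proteins, ranged from 23.6 to 37.6 CPM in LV and from 40.8 to 52.7 CPM in RV, without overlap, with a difference of 0.50 ± 0.06 (adjusted p 0.00433). Hey2, a Notch target of compact ventricular myocardium, was higher in RV in 10 of 11 animals (median 13.0 CPM in LV and 17.7 CPM in RV, 0.40 ± 0.08, adjusted p 0.00809). Gata6 and Etv1 also passed higher in RV, by 0.31 ± 0.07 (adjusted p 0.0111) and 0.40 ± 0.10 (adjusted p 0.0176). Tbx3 and Tbx2, T-box repressors of the working myocardial program, were higher in LV in 11 of 11 animals. Tbx3 ranged from 4.89 to 9.43 CPM in LV and from 2.07 to 7.00 CPM in RV (-0.60 ± 0.12, adjusted p 0.00826), and Tbx2 differed by -0.51 ± 0.10 (adjusted p 0.00774).

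Factors known for a sided role in the embryo had these values in the postnatal hearts. Tbx5, which marks the LV during development, ranged from 5.79 to 13.9 CPM in LV and from 3.29 to 14.2 CPM in RV and was higher in LV in 9 of 11 animals. Its difference of -0.37 ± 0.13 passed (adjusted p 0.0486), a call that was lost when any 1 of 9 animals was left out, and was -0.10 ± 0.09 in the banded animals (adjusted p 0.437). Hand2, needed for the embryonic RV, had a median of 28.0 CPM in LV and 28.9 CPM in RV, with a difference of -0.05 ± 0.04 (adjusted p 0.391). Hand1, the left-sided Hand factor, had at most 2 counts in an LV library, in 6 of 11 of them, and no count in RV, which is below the detection floor in both.

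**Figure D2:**
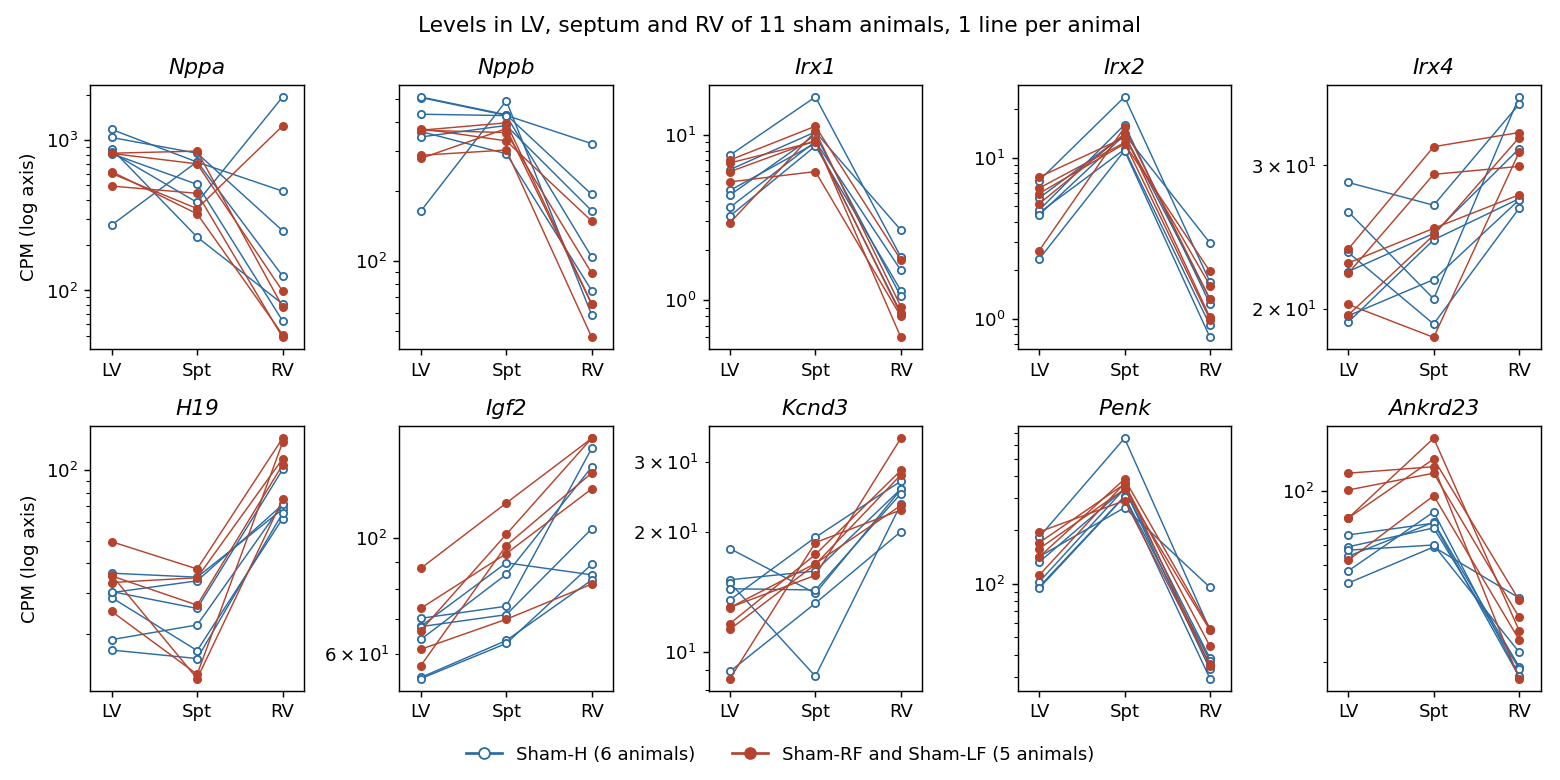
Levels of 10 genes in LV, Spt and RV of 11 shams, in CPM on a log axis, 1 line per animal. Open circles are the 6 Sham-H animals and filled circles the 5 older shams; Irx1, Irx2, Penk and Ankrd23 were low in RV and H19, Igf2 and Kcnd3 high, and 2 animals had Nppa above 1000 CPM in RV.

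Among the RV-higher genes with the largest differences was a neighbouring imprinted pair. H19, an imprinted noncoding RNA, ranged from 17.0 to 49.5 CPM in LV (median 30.3) and from 62.1 to 137 CPM in RV (median 75.0), without overlap. Its neighbour Igf2, an imprinted growth factor with no protein-coding gene between the pair, ranged from 53.8 to 87.5 CPM in LV (median 66.5) and from 81.6 to 155 CPM in RV (median 124). Both were higher in RV in 11 of 11 animals. The log2 differences were 1.34 ± 0.24 for H19 (adjusted p 0.00741) and 0.68 ± 0.14 for Igf2 (adjusted p 0.00981) in all 12 shams, and 1.36 ± 0.25 (adjusted p 0.00562) and 0.59 ± 0.10 (adjusted p 0.00336) in the banded animals. Igf2r, the receptor that clears Igf2, had a median of 129 CPM in LV and 117 CPM in RV and did not pass (-0.13 ± 0.05, adjusted p 0.0692).

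The largest difference by the naming rule was that of Il1a, a cytokine released upon cell damage, at 0 to 0.926 CPM in LV and 1.12 to 6.76 CPM in RV, without overlap (2.02 ± 0.42, adjusted p 0.00909). Sall1, a zinc finger factor, ranged from 0.443 to 1.61 CPM in LV and from 2.30 to 6.40 CPM in RV (1.42 ± 0.24, adjusted p 0.00646). Lsr, a lipoprotein receptor of epithelial junctions, ranged from 1.53 to 2.90 CPM in LV and from 3.56 to 8.79 CPM in RV (1.14 ± 0.21, adjusted p 0.00762). In these 3 genes and in Vsnl1, a neuronal calcium sensor, each RV library lay above each LV library. Vsnl1 had a median of 1.17 CPM in LV and 3.78 CPM in RV, and its difference of 1.37 ± 0.43 passed (adjusted p 0.0332). The rule also named Agr2, Epha3, Clic3, Vof16, Rpe65, Nkain4 and Il22ra2, each higher in RV in 11 of 11 animals, with differences from 1.14 to 1.74 in all 12 shams, and all passed. The rule picked them in 11 of the same 12 animals, so this passing is not independent of the choice. Of the 12 genes 9 were past the adjusted p of 0.05 in the banded animals, all with the same direction, and Agr2 (adjusted p 0.0534), Nkain4 (0.063) and Il22ra2 (0.17) were not. These genes were low. Among the 12, H19 alone exceeded 10 CPM in the RV median. The calls of Vsnl1 and Clic3 were lost in 9 and 8 of 12 fits that each left out 1 animal.

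The LV-higher genes with the largest differences held a group that was higher still in the septum. Penk, which encodes the precursor of enkephalin peptides, ranged from 94.1 to 195 CPM in LV (median 141) and from 29.4 to 95.2 CPM in RV (median 38.1), with a septum median of 340 CPM. The highest RV value, in Sham-H replicate 1, just exceeded the lowest LV value. The septum medians of Irx1 and Irx2 were 9.22 and 13.8 CPM. Penk passed (-1.37 ± 0.27, adjusted p 0.00794) and was lower in RV in the banded animals also (-0.79 ± 0.26, adjusted p 0.0421).

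The following 3 genes also lay on the LV side. Ankrd23, a titin-binding ankyrin repeat protein, ranged from 42.1 to 118 CPM in LV (median 59.2) and from 17.2 to 36.6 CPM in RV (median 22.0), without overlap. Tceal7, a small nuclear protein, ranged from 10.7 to 38.0 CPM in LV (median 15.0) and from 3.18 to 15.1 CPM in RV (median 6.41). Acta1, skeletal alpha-actin and a fetal gene of the heart, ranged from 1115 to 1598 CPM in LV and from 433 to 1474 CPM in RV. All 3 were higher in LV in 11 of 11 animals and passed, with differences of -1.27 ± 0.24 (adjusted p 0.00785), -1.28 ± 0.24 (adjusted p 0.00762) and -0.76 ± 0.18 (adjusted p 0.0146). In the banded animals, in which 1 ventricle is loaded, they were -0.44 ± 0.39 (adjusted p 0.416), -0.31 ± 0.32 (adjusted p 0.497) and -0.17 ± 0.29 (adjusted p 0.686). These are averages over PAB, which loads RV, and AOB, which loads LV, so opposite effects of load could offset each other. Whether the difference between shams and banded animals exceeds its error was not tested. The rule further named Sstr4, Chrna1, Slc17a7, Ptprt and Habp2, of which Chrna1 is an acetylcholine receptor subunit of muscle. They were higher in LV in 11 of 11 animals, had medians of 1.11 to 6.01 CPM in LV, and all passed with differences from -1.22 to -0.95.

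**Figure D3:**
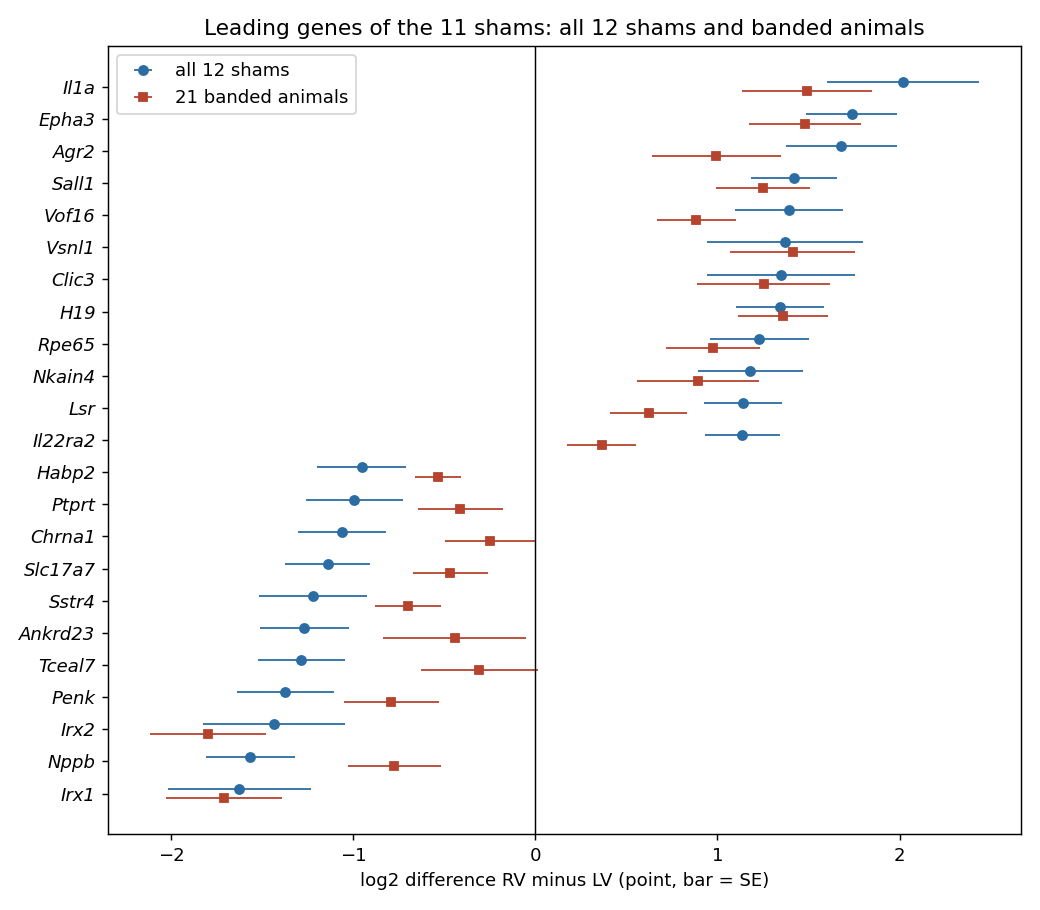
Log2 difference RV minus LV with its SE (bar) of genes with the largest differences in the 11 shams, in all 12 shams (circles) and in the 21 banded animals (squares). All points lie on the same side of 0 in both, and those of Tceal7, Ankrd23 and Chrna1 lie nearer to 0 in the banded animals. Values of the banded animals are averages over PAB and AOB.

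Genes of the action potential were split between the ventricles. Of 29 tested potassium channel genes, 3 passed higher in RV (10.3%) and 4 higher in LV (13.8%), with a median of -0.07, shares near those of all genes. Kcnd3 and Kcnd2 encode pore subunits of the transient outward current. Kcnd3 ranged from 8.55 to 18.2 CPM in LV (median 12.9) and from 20.1 to 34.5 CPM in RV (median 25.6), without overlap. Kcnd2 had a median of 14.1 CPM in LV and 19.4 CPM in RV and was higher in RV in 9 of 11 animals. The differences were 0.86 ± 0.15 (adjusted p 0.00741) and 0.40 ± 0.11 (adjusted p 0.0196), and in the banded animals 0.54 ± 0.12 (adjusted p 0.0119) and 0.23 ± 0.09 (adjusted p 0.0675). Kcnip2, the accessory subunit of this current, had at most 11 counts in a library and was not tested. Kcnk2, a stretch-activated channel, also passed higher in RV (0.42 ± 0.08, adjusted p 0.0083). Kcnj8, a pore subunit of ATP-sensitive channels found in pericytes and smooth muscle, passed higher in LV (-0.37 ± 0.07, adjusted p 0.00789), as did Kcnk3 (-0.46 ± 0.15, adjusted p 0.0406), a call that was lost in 10 of 12 fits without 1 animal.

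Of 20 tested genes of sodium channels, connexins and conduction, 3 passed higher in RV (15.0%) and 4 higher in LV (20.0%). These shares stand beside 11.7% and 12.5% of all genes, and the median was 0.01. Gja1, the main ventricular connexin, ranged from 242 to 450 CPM in LV (median 327) and from 327 to 598 CPM in RV (median 411), and was higher in RV in 11 of 11 animals (0.33 ± 0.06, adjusted p 0.00809). Scn3b, an accessory subunit of sodium channels, passed higher in LV by -0.63 ± 0.10 (adjusted p 0.00646). Hcn2, a pacemaker channel, ranged from 124 to 242 CPM in LV and from 39.7 to 170 CPM in RV (-0.77 ± 0.21, adjusted p 0.0212). Gja5, a connexin of atrium and conduction fibres, had a median of 22.3 CPM in LV and 22.8 CPM in RV (0.03 ± 0.08, adjusted p 0.831). Ank3 and Scn7a were the other genes that passed higher in RV.

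Both myosin heavy chains of the heart passed, in opposite directions. Of 42 tested genes of sarcomere and Z-disc, 4 passed higher in RV (9.52%) and 6 higher in LV (14.3%), near the 11.7% and 12.5% of all genes, with a median of 0.02. Myh6, the fast myosin heavy chain of the adult rodent heart, ranged from 12569 to 19437 CPM in LV (median 13673) and from 15537 to 22152 CPM in RV (median 18638). Myh7, the slow form, ranged from 4394 to 8226 CPM in LV (median 5792) and from 2679 to 10496 CPM in RV (median 4321), with 10 of 11 animals higher in LV and Sham-H replicate 1 higher in RV. Both passed, Myh6 higher in RV by 0.25 ± 0.08 (adjusted p 0.0386) and Myh7 higher in LV by -0.31 ± 0.09 (adjusted p 0.0261). The call of Myh6 was lost in 9 of 12 fits without 1 animal, and that of Myh7 without Sham-H replicate 2 or 3 or Sham-LF replicate 2 or 3. In the banded animals Myh7 had 0.10 ± 0.11 (adjusted p 0.531). Tnni3, cardiac troponin I, passed higher in RV (0.28 ± 0.08, adjusted p 0.0235), a call that was lost in 2 of these fits.

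Of 31 tested genes of calcium cycling, 8 passed higher in RV (25.8%) and 1 higher in LV, with a median of 0.06. Trdn, triadin of the release complex, ranged from 293 to 459 CPM in LV (median 336) and from 343 to 858 CPM in RV (median 574). Hrc, a calcium-binding protein of the same store, ranged from 913 to 1496 CPM in LV and from 1224 to 2050 CPM in RV. They were higher in RV in 11 of 11 animals, with differences of 0.55 ± 0.14 (adjusted p 0.0183) and 0.38 ± 0.11 (adjusted p 0.0218), and that of Hrc was lost without Sham-LF replicate 3. Pln, the inhibitor of the calcium pump, and Slc8a1, the sodium-calcium exchanger, passed by 0.19 ± 0.05 (adjusted p 0.0139) and 0.23 ± 0.06 (adjusted p 0.0169). The gene higher in LV was Jph2, which joins the store to the cell membrane (median 207 CPM in LV and 114 CPM in RV, -0.71 ± 0.25, adjusted p 0.0478), a call that was lost in 11 of 12 fits without 1 animal. In the banded animals 7 of 31 were higher in RV (22.6% against 7.13% of all genes) and 1 in LV (3.23% against 9.83%).

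Genes of energy metabolism lay toward RV by small steps. Of 76 tested nuclear-encoded subunits of the respiratory chain, 27 passed higher in RV (35.5%) and 2 higher in LV, with a median of 0.14. Their summed level ranged from 67305 to 98209 CPM in LV and from 73113 to 111305 CPM in RV, and was higher in RV in 11 of 11 animals. Examples are Ndufb3 (median 252 CPM in LV and 317 CPM in RV, 0.29 ± 0.08, adjusted p 0.0197) and Cox6c (0.28 ± 0.07, adjusted p 0.0193). The 2 higher in LV, Ndufa4l2 and Cox4i2, are known as forms that respond to hypoxia, with differences of -0.38 ± 0.08 (adjusted p 0.00879) and -0.30 ± 0.08 (adjusted p 0.0204). In the banded animals no member passed higher in RV and 2 were higher in LV, with a median of 0.10, and 29 of 76 had an unadjusted p under 0.05 with edgeR.

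Of 38 tested genes of fatty acid uptake and oxidation, 9 passed higher in RV (23.7%) and none higher in LV, with a median of 0.10. Within library series 2, 13 members were past the cut-off toward RV and 2, Cd36 and Bdh1, toward LV. Decr1, an enzyme for unsaturated fatty acids, ranged from 232 to 306 CPM in LV and from 288 to 441 CPM in RV (0.37 ± 0.09, adjusted p 0.016). Etfb, an electron carrier of this pathway, had a median of 595 CPM in LV and 887 CPM in RV (0.42 ± 0.11, adjusted p 0.0205). Of 35 tested genes of glucose uptake and glycolysis, 6 passed higher in RV (17.1%) and 1 higher in LV (2.86%), with a median of 0.04. All genes had 11.7% and 12.5%. Eno3, the muscle enolase, ranged from 554 to 840 CPM in LV (median 636) and from 787 to 998 CPM in RV (median 960), with a difference of 0.43 ± 0.09 (adjusted p 0.00871). Slc2a4, the insulin-responsive glucose transporter, differed by 0.20 ± 0.05 (adjusted p 0.0182). Of 82 cytosolic ribosomal proteins, 17 passed higher in RV (20.7%) and none higher in LV, with a median of 0.12. Between the ventricles of the banded animals, none of 82 was past the adjusted p of 0.05 with edgeR, and 3 had an unadjusted p under 0.05.

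Matrix genes lay on the LV side. Of 48 tested genes of matrix and matricellular proteins, 21 passed higher in LV (43.8% against 12.5% of all genes) and 3 higher in RV (6.25% against 11.7%), with a median of -0.17. The summed level of the list ranged from 7692 to 11106 CPM in LV and from 6525 to 9462 CPM in RV and was higher in LV in 11 of 11 animals. Col8a1, a short-chain collagen of vessels, ranged from 8.56 to 19.2 CPM in LV (median 13.6) and from 4.43 to 9.01 CPM in RV (median 7.06). Col4a1, a chain of basement membrane collagen, ranged from 469 to 696 CPM in LV and from 261 to 494 CPM in RV. Their differences were -0.87 ± 0.13 (adjusted p 0.00646) and -0.51 ± 0.09 (adjusted p 0.00741). Col1a1 and Col3a1, the fibrillar collagens, passed by -0.24 ± 0.05 (adjusted p 0.00941) and -0.24 ± 0.06 (adjusted p 0.012). Cilp, a fibroblast matrix protein, passed by -0.72 ± 0.10 (adjusted p 0.00646). Fmod, a small proteoglycan that binds collagen, lay on the RV side (median 4.64 CPM in LV and 9.71 CPM in RV, 0.77 ± 0.23, adjusted p 0.0266), with Ltbp1 and Hapln1. These 3 calls were lost in 5, 8 and 6 of 12 fits without 1 animal. Between the ventricles of the banded animals, 18 of 48 were higher in LV (37.5% against 9.83% of all genes) and 2 in RV (4.17% against 7.13%).

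Of 58 tested signalling ligands and secreted inhibitors, 10 passed higher in RV (17.2%) and 6 higher in LV (10.3%), with a median of 0.04. Dkk3, a secreted member of the Dickkopf family, ranged from 127 to 164 CPM in LV and from 178 to 252 CPM in RV, without overlap (0.46 ± 0.08, adjusted p 0.00741). Ptn, a heparin-binding growth factor, and Il33, an alarmin of stromal cells, were higher in RV in 11 of 11 animals, by 0.54 ± 0.13 (adjusted p 0.0132) and 0.55 ± 0.09 (adjusted p 0.00646). Tgfb1, the profibrotic growth factor, ranged from 41.7 to 73.4 CPM in LV and from 35.8 to 57.8 CPM in RV (-0.28 ± 0.07, adjusted p 0.0145). Of 15 clock genes 1 passed higher in RV (6.67% against 11.7% of all genes) and 2 higher in LV (13.3% against 12.5%). Of 20 immediate early genes 1 passed higher in RV (5.0%) and 3 higher in LV (15.0%), among them Egr1 (-0.53 ± 0.12, adjusted p 0.0121), with values from 4.37 to 71.0 CPM in LV.

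**Figure D4:**
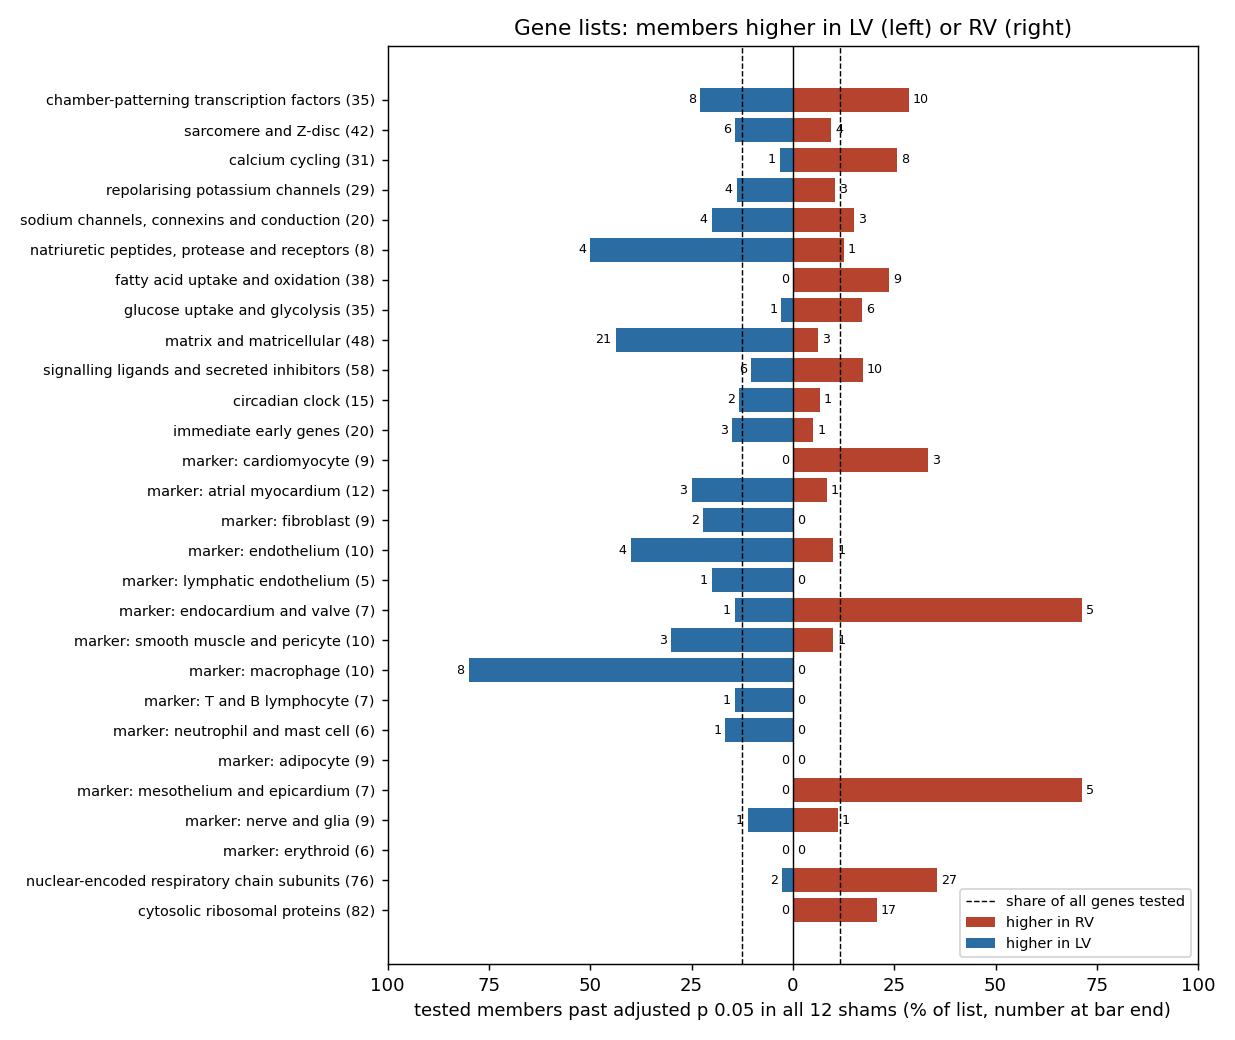
Share of each gene list (number of tested members in parentheses) that passed an adjusted p of 0.05 in all 12 shams, higher in LV to the left and in RV to the right, with the number of genes at the end of each bar. Dashed lines mark the share of all genes tested, 12.5% for LV and 11.7% for RV; respiratory chain and endocardial lists extend beyond it on the RV side, and matrix and macrophage lists on the LV side.

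Most markers of lining cells were higher in RV. Of 7 tested markers of mesothelium and epicardium 5 passed higher in RV, with a median of 1.07. Msln, which defines mesothelium, ranged from 0.574 to 32.3 CPM in LV (median 5.76) and from 2.67 to 71.6 CPM in RV (median 25.1), against a septum median of 0.88 CPM. It was higher in RV in 10 of 11 animals, with a difference of 1.57 ± 0.54 (adjusted p 0.0451) in all 12 shams and 1.43 ± 0.47 (adjusted p 0.0407) in the banded animals. Krt19 and Upk1b, epithelial genes of the same lining, passed by 1.46 ± 0.50 (adjusted p 0.0441) and 1.58 ± 0.53 (adjusted p 0.0422), and all 3 calls were lost in 10 of 12 fits without 1 animal. Wt1, a transcription factor of the epicardium in the same list, lay the other way, at 16.3 to 27.1 CPM in LV (median 23.4) and 12.6 to 28.4 CPM in RV (median 18.3). It was lower in RV in 10 of 11 animals and did not pass (-0.26 ± 0.09, adjusted p 0.0503), while it was past the cut-off in the LV direction in the 11 animals (-0.33), within library series 2 (-0.41) and without both animals with atrial genes (-0.30). Of 7 tested markers of endocardium and valve 5 passed higher in RV and 1, Nfatc1, higher in LV, with a median of 0.54. Nfatc1 was lower in RV in 11 of 11 animals, with log2 differences from -0.73 to -0.10. It was also past an adjusted p of 0.05 toward LV in the banded animals. Cytl1 ranged from 47.0 to 90.8 CPM in LV and from 74.4 to 150 CPM in RV (0.55 ± 0.13, adjusted p 0.0124). The summed levels of both lists were higher in RV in 11 of 11 animals, from 58.6 to 127 CPM in LV and from 85.4 to 220 CPM in RV for mesothelium and epicardium, and from 121 to 183 CPM in LV and from 156 to 324 CPM in RV for endocardium and valve.

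Macrophage genes were higher in LV. Of 10 tested markers 8 passed higher in LV and none higher in RV, with a median of -0.27. Past the cut-off in the LV direction were 9 of 10 in the 11 animals, 5 of 10 without both animals with atrial genes in RV, and 4 of 10 within library series 2 (Cd68, Csf1r, Adgre1 and C1qc). Cd68 ranged from 9.00 to 18.8 CPM in LV (median 16.6) and from 8.81 to 14.8 CPM in RV (median 10.9), and was higher in LV in 11 of 11 animals (-0.44 ± 0.08, adjusted p 0.00691). Adgre1 and Csf1r passed by -0.40 ± 0.08 (adjusted p 0.00979) and -0.31 ± 0.07 (adjusted p 0.0145). The summed level of the list was higher in LV in 9 of 11 animals. Between the ventricles of the banded animals, 7 of 10 were higher in LV (70.0% against 9.83% of all genes). Of 10 markers of endothelium 4 passed higher in LV (Tie1, Kdr, Cdh5 and Tek) and 1, Vwf, higher in RV (median 230 CPM in LV and 340 CPM in RV). The call of Tek was lost in 8 of 12 fits without 1 animal. Among 9 markers each of fibroblasts and of cardiomyocytes, 2 of the former passed higher in LV and 3 of the latter higher in RV, and the summed cardiomyocyte level was higher in RV in 11 of 11 animals. The part that these differences in cell markers have in the other gene lists was not tested.

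**Figure D5:**
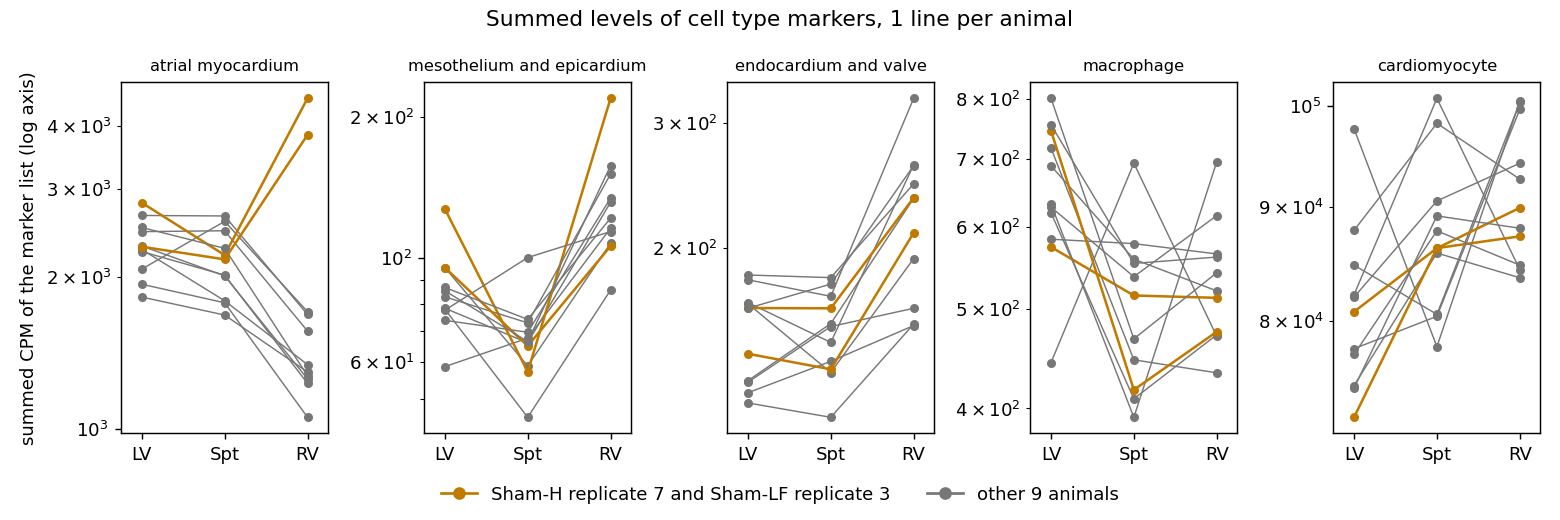
Summed CPM (log axis) of 5 marker lists in LV, Spt and RV of 11 shams, 1 line per animal. Sham-H replicate 7 and Sham-LF replicate 3, in colour, lie above the other 9 animals in RV for atrial markers; mesothelial and endocardial sums were higher in RV than in LV in each animal.

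Other marker lists held at most 3 genes that passed in 1 direction. Of 10 markers of smooth muscle and pericytes 1 passed higher in RV (10.0%, Lmod1) and 3 higher in LV (30.0%, Rgs5, Kcnj8 and Notch3). Of 12 atrial markers 1 passed higher in RV (8.33%, Dhrs9) and 3 higher in LV (25.0%, Nppa, Pam and Nr2f2). All genes had 11.7% and 12.5%. In the 11 animals 5 of the 10 smooth muscle and pericyte markers were past the cut-off toward RV and 4 toward LV. All genes had 20.9% and 23.9% there. Within library series 2 these markers were 4 toward RV (Acta2, Tagln, Cnn1 and Lmod1) and 3 toward LV (Rgs5, Kcnj8 and Notch3). The shares of all genes in that series were 17.7% and 17.9%. The calls of Lmod1, Dhrs9, Nr2f2, Rgs5 and Cox4i2 were lost in 11, 10, 8, 1 and 1 of 12 fits without 1 animal. Flt4 of 5 lymphatic markers, Lck of 7 lymphocyte markers and Kit of 6 markers of neutrophils and mast cells passed higher in LV. Of 9 markers of nerve and glia, 1 passed in each direction. With edgeR none passed among 9 markers of adipocytes, 6 of erythroid cells and 1 of lung and thymus, of which 1, 2 and 0 had an unadjusted p under 0.05. In the description of 11 animals these counts were 1 in each direction for adipocytes and 4 higher in LV for erythroid cells.

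The atrial genes show how much 2 libraries can carry. Bmp10, a growth factor of atrial trabeculae, had 20.0 CPM in the RV library of Sham-H replicate 7 and 4.59 CPM in that of Sham-LF replicate 3, and at most 0.0727 CPM in the other 9 RV libraries. LV held at most 0.308 CPM. Myl7, the atrial light chain, had 590 and 551 CPM in these 2 RV libraries and 1.02 to 76.2 CPM in the other 9, against 3.00 to 163 CPM in LV. Bmp10 fell past the cut-off in the 11 animals although only 2 of 11 were higher in RV, and did not pass with 12 animals (adjusted p 0.656). Myl7 differed by 0.73 in the 11 animals and by 0.01 without both, and in all 12 shams by 0.25 ± 0.91 (adjusted p 0.855).

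In the animal left out, the libraries lay on the opposite sides. The LV library of Sham-H replicate 6 held 0.854 CPM of Irx1, 109 CPM of H19 and 32.8 CPM of Penk, each within or near the RV range of the 11 members. Its RV library held 7.54 CPM of Irx1, 39.8 CPM of H19 and 128 CPM of Penk, near or within the LV range. The LV library also held 42.9 CPM of Bmp10 and 4169 CPM of Nppa. Labels were kept in all fits.

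The septum, which forms the wall between both ventricles, lay nearer to LV, or beyond it, for most genes with large differences. Its median was nearer to that of LV than to that of RV in 87 of 98 RV-higher genes of at least 1 log2 unit (88.8%). The same held for 27 of 36 such LV-higher genes (75.0%). This share was 60.9% of all RV-higher genes, 58.3% of all LV-higher genes and 56.7% of all genes tested. The septum median lay between the medians of both ventricles in 46 of the 98 and in 19 of the 36. Below both lay 50 of the 98, among them Msln, Vsnl1 and H19, and above both lay 15 of the 36, among them Irx1, Irx2 and Penk. Most septum libraries belong to another library series than the ventricles of the same animal, and its part in these levels was not tested.

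The question whether the difference between ventricles changes with age was asked by the interaction of chamber and age, with 6 young animals (11 weeks) and 5 older ones (27 or 30 weeks). No gene of 11597 passed (0.0%), with edgeR or with DESeq2, and 1183 genes (10.2%) were under 0.05 before adjustment with edgeR and 826 with DESeq2. No adjusted p was below 0.309. With all 12 shams the unadjusted count was 1647, and within library series 2, to which all older animals belong, it was 953, also with no gene past the adjusted threshold. Of the 3 genes with the lowest p in each direction, all had fitted differences of the same sign at both ages. They were picked by this p from all tested genes, so their values by age are a description and do not test an effect. Srek1, a splicing factor, was higher in RV by 0.27 to 0.95 on the log2 scale in the 6 young animals and by 1.03 to 1.33 in the 5 older ones. Eif4ebp3, an inhibitor of translation, was higher in RV by 0.00 to 0.52 in young and by 0.62 to 1.14 in older animals. Pdlim3, a Z-disc protein, was higher in RV by 0.15 to 0.52 in young and by 0.66 to 0.87 in older animals. Cybb, the catalytic subunit of the phagocyte oxidase, was lower in RV by 0.05 to 1.07 in young and by 0.97 to 2.37 in older animals, with overlap. Angptl1 and Wipf1 were the other 2, with interactions of -0.71 ± 0.14 and -0.32 ± 0.07 (adjusted p 0.309 for both).

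In the promoters of the sorted genes the 5 motifs were counted as a description. Of the tested genes 9490 (81.8%) had a promoter in the table. The GATA letters AGATAA were held by 7.83% of RV-higher, 5.35% of LV-higher and 5.84% of all tested genes. The T-box core AGGTGT was held by 10.3%, 9.15% and 9.09% of these promoters. For the E-box letters CATCTG the shares were 7.78%, 9.11% and 9.19%. For the Nkx2-5 core CACTTA they were 5.34%, 5.26% and 5.41%. The MEF2 core CTAAAAATA was in 0.254%, 0.265% and 0.316%.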

How the data were processed

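Polyadenylated RNA of LV, Spt and RV pieces was sequenced as single reads. Per the labels and the study's methods, the authors trimmed reads with Trim Galore, aligned them with STAR to Rnor6.0, counted them per gene of the UCSC annotation with featureCounts and used DESeq2, and whether counting used strand is not given in the sources used here. The authors deposited raw counts, normalized counts (a signal scaled by DESeq2) and FPKM for each library in 1 table of 17337 genes, and the tests here used the deposited raw counts.

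Genes were filtered with filterByExpr (minimum count 10), scaled by TMM and tested with the quasi-likelihood test of edgeR 4.0.16 in R 4.3.3, with the animal as a block, and p-values were adjusted by Benjamini-Hochberg over all tested genes. The block comes from the labels, since both libraries belong to the same animal (correlation of their deviations -0.25 to 0.72). DESeq2 1.42.0, RLE scaling, no filter, no block and single animals left out were alternatives. CPM are counts scaled to 1000000 per library after TMM. Intervals of counting error were not used; a floor of 3 counts covers counting error only. Named genes were the 12 with the largest difference in each direction (mean of at least 1 CPM, 11 of 11 animals), up to 4 genes past the cut-off per list and direction, a fixed set, and 3 genes per direction of the age interaction. Irx3, Irx5 and Igf2r were named after their values were seen. Members and lists were chosen with earlier results of these data known. The fits were tested on simulated data. Some genes that the rule names are not reported here.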

Additional observations from a re-analysis of the deposited data

Results flagged for a closer look

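Of 280 groups of values (the log2 difference RV minus LV of the named genes and the summed marker levels, each in 6 young or 5 older shams), 27 held 1 animal that lay far from the others by Dixon's criterion, which chance reaches in about 1 of 20 groups. No explanation was weighed for any of them.

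In Sham-LF replicate 1, 8 genes stood apart among the older shams, with log2 differences of -2.47 for Habp2, 0.661 for Gata6, 1.07 for Hrc, 0.851 for Kcnd3, 1.19 for Etfb, 0.822 for Ndufb3, 0.891 for Cox6c and 0.87 for Pdlim3. In Sham-LF replicate 3 they were 1.05 for Nppa, 6.34 for Bmp10 and 0.141 for Ltbp1, and in Sham-RF replicate 1 the value was -0.035 for Kdr. Among the young shams, Sham-H replicate 1 had -0.57 for Penk, -0.202 for Ankrd23 and 0.474 for Myh7. Sham-H replicate 2 had -1.22 for Tbx3, -0.547 for Npr1, -1.42 for Flt4 and -0.764 for Notch3. Single values were 5.78 for Bmp10 in Sham-H replicate 7, 1.46 for Lsr in Sham-H replicate 4 and 0.13 for Ndufb3 in Sham-H replicate 5.

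Of the summed marker levels in RV, atrial markers stood apart in Sham-H replicate 7 (4542 CPM) and Sham-LF replicate 3 (3841 CPM), mesothelial and epicardial markers in Sham-H replicate 7 (219.6 CPM), and markers of lymphocytes (15.6 CPM) and of lung and thymus (3.04 CPM) in Sham-H replicate 2.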

How the results depend on the processing

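The count past the cut-off in the 11 animals (5204 genes) was 2172 with no replicate block, 2539 in the young animals alone and 3052 in the older animals alone, the last both with fewer samples, and 4629 to 5195 with single animals left out. With all 12 shams (2807 genes) it was 885 with no replicate block, 284 without both animals with atrial genes in RV, and 1389 to 5204 with single animals left out. In the banded animals (1999 genes) it was 182 with no replicate block, 0 in the compensated stage alone (2966 at an unadjusted p under 0.05, with edgeR), 54 in the failure stage alone, 0 with pulmonary artery banding alone (1536), 0 with aortic banding alone (3688), and 4545 without both reversed animals. The interaction with age gave 0 genes under each alternative, also with no replicate block, and from 0 to 0 with single animals left out. Leaving out the animals with atrial genes or with reversed differences was chosen after seeing the data. Scaling by RLE, DESeq2 and no filter on low counts kept the other counts within 1.5 times. Of 2079 alternatives for 110 named genes, 2027 kept direction and side of the cut-off in the 11 animals, 45 lost the call and 7 turned direction. The latter were Bmp10 with DESeq2 (-0.44), Myl7 in the young animals (-0.57), and Gja5 in the older animals (-0.0195) or without Sham-H replicate 1 (-0.0027), 3 (-0.0045) or 4 (-0.0073) or Sham-RF replicate 1 (-0.0555). With single animals left out, Gja5 ranged from -0.0555 to 0.065. Of 104 named genes that passed with 12 animals, 77 passed in all 12 fits without 1 animal. Unless stated, the cause was not tested. Depth limits genes near the floor of 3 counts, such as Hand1.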
